A study of Mus musculus with 6 samples.

Results

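The genes described here encode tight junction and cell polarity proteins of the mouse liver. They are the rows of the deposited gene table whose symbol names a claudin, a zonula occludens (ZO) protein, occludin or a MARVEL relative, a junctional adhesion molecule, a plaque protein, an angulin, or a member of the PAR, Crumbs or Scribble complexes. The rule found 48 of the 17441 genes in the table, and 41 of the 48 had enough counts to be tested. The rule reads symbols alone and uses no measured value, but the genes were chosen with earlier results of these data known. The gene that the rule calls Pals1 stands in the table under its older symbol Mpp5 and was therefore not among the 48. Its level was 8.97 ± 3.09 counts scaled to library size (CPM) in wild type (WT) and 8.20 ± 2.15 CPM in the livers labelled knockout (SD, n = 3 each), and it was not called (edgeR adjusted p = 0.802).

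The study compared livers of 3 WT mice with livers of 3 mice of the genotype NEK7 whole body knockout, an inducible knockout named iKO in the sample titles. NEK7 is a kinase of the NIMA family. Tamoxifen, the drug that switches such an inducible knockout on, had been given 10 days before collection, and the labels state this for the WT mice too. The title of the series names acetaminophen-induced liver injury, and no sample label names an acetaminophen dose. The promoter that drives the inducible system, the ages, the sexes and the hour of collection are not given in the sources used here.

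Tight junctions seal the space between neighbouring epithelial cells. In the liver they close the bile canaliculus, the narrow channel between hepatocytes that carries bile, and so keep bile apart from blood. Claudins and occludin cross the membrane and set which ions and molecules pass. ZO proteins and cingulins bind them from inside and tie them to actin. The PAR and Crumbs complexes mark the apical side of a cell, and the Scribble complex marks the basolateral side.

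Depth and the labels were checked first. Library totals ran from 18139500 to 19912000 expected counts. WT 1 and iKO 1 stood further from their group mates, over genes with enough counts, than those mates from each other. Chi-square per degree of freedom against counting noise was 181.7 and 200.3 for WT 1 with WT 2 and WT 3. It was 38 between WT 2 and WT 3. For iKO 1 with iKO 2 and iKO 3 it was 147.7 and 167, and 41.31 between iKO 2 and iKO 3. Nek7 read 55.5, 40.5 and 36.3 CPM in WT 1 to 3 and 50.2, 32.8 and 31.0 CPM in iKO 1 to 3 (edgeR log2 fold change -0.22, SE 0.23, adjusted p = 0.541), so the gene total did not set the groups apart. A gene total does not show whether a deleted part is missing, and the libraries are called "labelled iKO" for this reason. The Y-linked genes Ddx3y and Kdm5d together gave 0 counts in WT 2 and WT 3 and between 573 and 1113 expected counts in each of the other 4 libraries. The 2 groups therefore differ in apparent sex as well as in label. The hepatocyte markers stood high in all 6 libraries, with albumin (Alb) at 66386 to 91157 CPM, and of 8 such markers 1 was called (Hnf4a, higher). Among markers of other cells, 5 of 10 sinusoidal endothelial, 7 of 10 stellate cell and 6 of 8 Kupffer cell genes were called lower. In bulk tissue, fewer cells of a type and less RNA per cell cannot be told apart. Beyond a number for each liver the labels describe no animal, so p-values measure only the spread between these samples.

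Claudin 1 fell most, about 6-fold, and 8 other genes fell about 1.6-fold to 2.2-fold. They included Tjp3 and Tjp1, which encode ZO proteins, occludin (Ocln), cingulin (Cgn), the polarity gene Llgl2, and the claudins Cldn2 and Cldn12. Cldn1 and the other 8 were 9 of the 41 tested genes, and edgeR's quasi-likelihood test called 0 of the 41 higher (1 at an unadjusted p under 0.05). DESeq2 called 10 lower and 1 higher, and limma-voom called 8 lower and 0 higher. Of all 13160 tested genes, 15.4% were called in either direction, 8.07% lower and 7.31% higher, while the 9 genes are 22% of the 41. The median log2 fold change of the 41 genes was -0.42, against -0.02 for all tested genes. The CPM ranges of the groups did not overlap in 17 genes that were lower and 4 that were higher in the livers labelled iKO. Among all tested genes 19.2% and 19.8% stood apart in those directions, 39% in all.

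**Figure D1:**
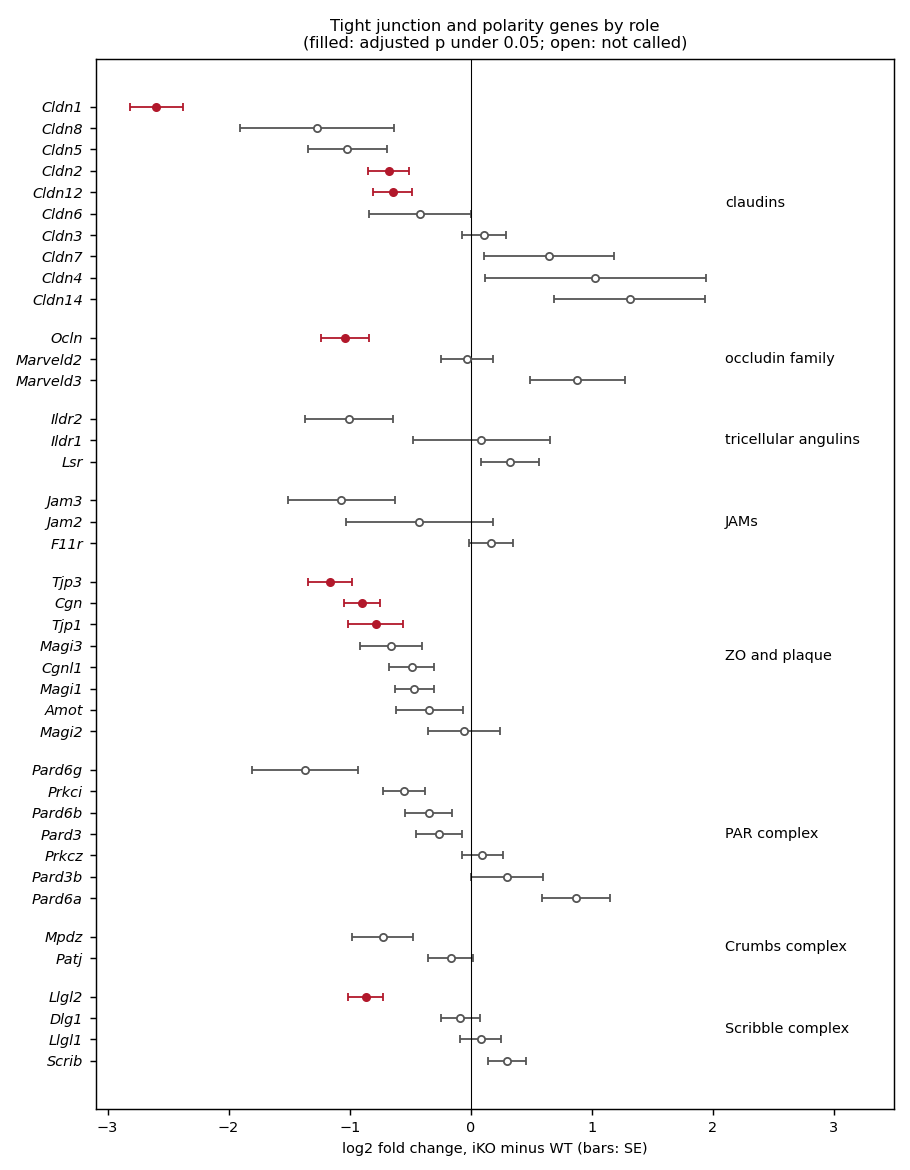
Log2 fold change (x axis, iKO minus WT, bars are SE) of 40 tested genes, ordered by role. The 8 filled red points passed an edgeR adjusted p of 0.05, and all of them lie left of 0; Cldn1 stands apart at -2.60.

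Transcript length and apparent sex were each put into the fit. Long transcripts were called lower more often than short ones across all genes, from 2.15% in the shortest length quintile to 14.7% in the longest. Of the 41 genes 13 lie in the longest quintile and 10 in the next. With a correction for transcript length, 8 genes were called lower (7 of the 9, and Cldn5) and the median was -0.20. With a term for Y-linked reads, which leaves WT 1 as the WT library with such reads, Cldn1 was the 1 gene called, the median was -0.39 and the other 8 genes had log2 fold changes between -1.05 and -0.65, against -1.16 and -0.65 without the term.

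The sequences just upstream of 3 of these genes are shown to put the fallen claudin gene beside one whose level was not called different, and beside a plaque gene that fell. They are the 250 bases before the annotated start, read 5′ to 3′ on the strand of the gene, from RefSeq on GRCm38.p6, which is a later build than the one the submitters' notes name. Capitals mark matches, on either strand, to 4 motifs: the canonical E-box CACGTG, the Snail-type E-box CAGGTG, the GC box GGGCGG and the TATA box TATAAA.
Cldn1 (chr16:26371840-26372089, minus strand): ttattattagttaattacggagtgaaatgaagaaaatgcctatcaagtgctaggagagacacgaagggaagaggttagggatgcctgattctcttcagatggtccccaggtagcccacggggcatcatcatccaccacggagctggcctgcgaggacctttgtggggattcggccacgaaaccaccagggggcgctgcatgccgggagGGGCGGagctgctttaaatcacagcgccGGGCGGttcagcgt
Cldn3 (chr5:134985964-134986213, plus strand): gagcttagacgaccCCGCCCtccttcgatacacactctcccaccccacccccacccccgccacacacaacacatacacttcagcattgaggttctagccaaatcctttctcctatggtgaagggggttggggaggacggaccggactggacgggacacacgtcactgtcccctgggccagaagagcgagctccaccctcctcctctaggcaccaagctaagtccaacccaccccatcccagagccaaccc
Cgn (chr3:94786483-94786732, minus strand): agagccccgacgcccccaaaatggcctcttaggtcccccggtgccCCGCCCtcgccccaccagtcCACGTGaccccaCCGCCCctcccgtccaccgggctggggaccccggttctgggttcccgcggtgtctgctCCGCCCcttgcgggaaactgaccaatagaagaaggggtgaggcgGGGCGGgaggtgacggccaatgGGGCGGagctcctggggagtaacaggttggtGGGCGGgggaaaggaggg
The Cldn1 window held 2 GC boxes, beginning 42 and 14 bases before the start, and the Cldn3 window held 1, beginning 236 bases before it. The Cgn window held 6 GC boxes and 1 canonical E-box, 185 bases before the start. RefSeq windows were matched for 38 of the 48 genes, which have 59 annotated starts. A GC box was in 57.6% of those 59 windows and in 32.7% of the 32851 windows of all genes. The canonical E-box was in 13.6% and 6.02%, the Snail-type E-box in 30.5% and 17.2%, and the TATA box in 8.47% and 12.4%. These matches describe letters only, and several windows can belong to 1 gene.

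Among the claudins, the membrane proteins that form the sealing strands, 3 of 10 tested genes fell and 7 were not called. Cldn1 (gene ID 12737) encodes claudin 1, a barrier-forming claudin that is also known as a hepatitis C virus entry factor. It read 147, 108 and 105 CPM in WT 1 to 3 and 23.6, 20.2 and 15.8 CPM in iKO 1 to 3. The lowest WT liver was far above the highest liver labelled iKO. Cldn1 had a log2 fold change of -2.60 (SE 0.22, edgeR adjusted p = 0.000311), which is 16.5% of the WT level. WT 1, the WT library with Y-linked reads, had the highest value of all, and the gene stayed called with the Y-linked term (log2 fold change -2.89, edgeR adjusted p = 0.00266).

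Cldn2 (gene ID 12738) encodes a claudin that forms pores for cations and water. It read 123, 104 and 114 CPM across WT and 70.3, 80.0 and 62.7 CPM across livers labelled iKO, without overlap. Its log2 fold change was -0.68 (SE 0.17, edgeR adjusted p = 0.029). Cldn12 (gene ID 64945), an atypical claudin that lacks the usual ZO-binding tail, read 74.2, 64.5 and 67.9 CPM across WT and 43.1, 49.7 and 39.1 CPM across those labelled iKO. The groups stood apart again, with a log2 fold change of -0.65 (SE 0.16, edgeR adjusted p = 0.0274). The Cldn12 call ended with the length correction (-0.48, adjusted p = 0.0744). Both calls held in 1 of the 6 fits that left out a library, the fit without iKO 2 (edgeR adjusted p up to 0.105 for Cldn2 without iKO 3 and 0.108 for Cldn12 without WT 2).

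**Figure D2:**
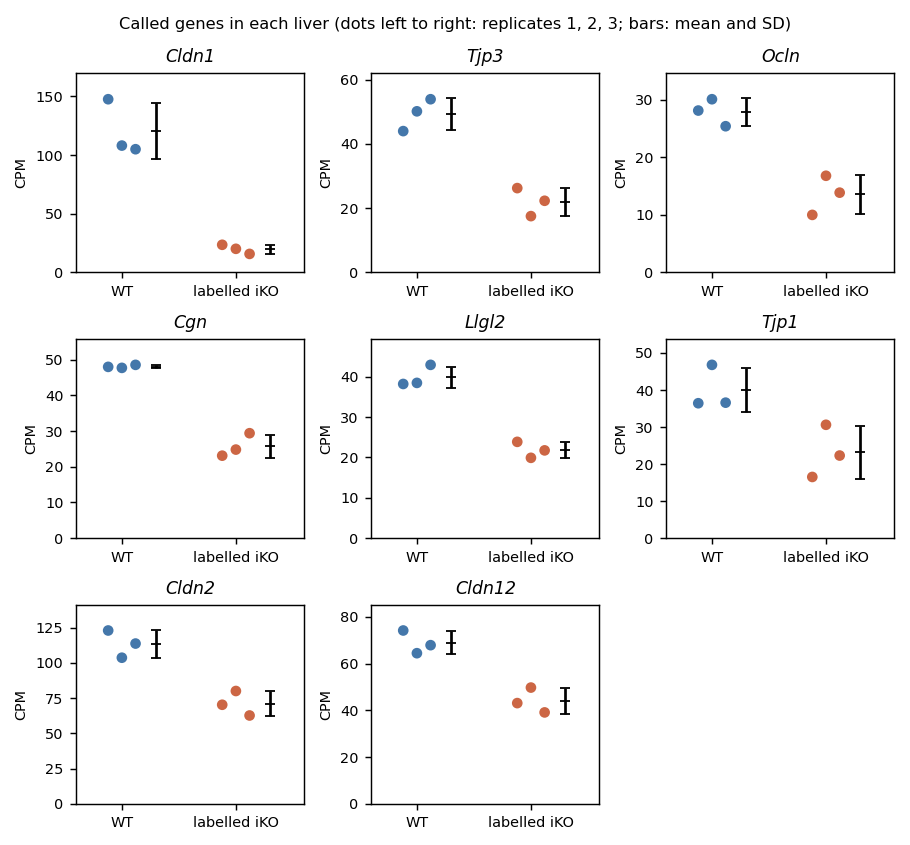
CPM (y axis, from 0) of 8 called genes in each liver, with replicates 1, 2 and 3 from left to right in each group and the mean and SD (n = 3) as bars. In every panel the highest liver labelled iKO lies below the lowest WT liver, by the widest margin for Cldn1 and by a narrow one for Tjp1.

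Cldn3 (gene ID 12739), another barrier-forming claudin, went with neither group. It read 98.6, 92.9 and 117 CPM across WT and 117, 93.4 and 123 CPM across livers labelled iKO (log2 fold change 0.11, SE 0.18, edgeR adjusted p = 0.711). Per transcript length it was the most abundant claudin, at 157 ± 23.2 transcripts scaled to library size and length (TPM) in WT and 137 ± 33.0 TPM across those labelled iKO (SD, n = 3 each). Cldn2 and Cldn1 followed in WT at 71.9 ± 1.79 and 69.1 ± 7.95 TPM, which do not differ beyond their spread. Cldn12 came next at 35.5 ± 2.68 TPM and Cldn14 at 13.0 ± 2.58 TPM (SD, n = 3 each). In the livers labelled iKO, Cldn1 was at 9.12 ± 1.21 TPM and stood below Cldn12 at 18.5 ± 4.70 TPM (SD, n = 3 each).

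The make-up of the claudin transcripts differed between the groups, with no test made of the shares. Cldn1 made up 22.7%, 19.0% and 16.1% of the summed TPM of the 17 listed claudins in WT and 4.01%, 4.43% and 3.04% in the livers labelled iKO. Cldn3 made up 39.9%, 42.9% and 47.4% in WT and 52.3%, 54.1% and 61.9% across those labelled iKO. The shares of Cldn2 overlapped, at 19.3% to 21.3% and 15.3% to 21.4%. Such shares do not depend on scaling between libraries, though the length trend can touch them, and these 5 claudins were picked for the plot with their values known. The ratio of Cldn1 to Cldn3 TPM was 0.569, 0.442 and 0.340 in WT and 0.0767, 0.0820 and 0.0491 across those labelled iKO. An exact 2-sided test of this ratio gave p = 0.1, the smallest value it can give here. Over the 4 ratios tested, its Benjamini-Hochberg adjusted p was 0.2.

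**Figure D3:**
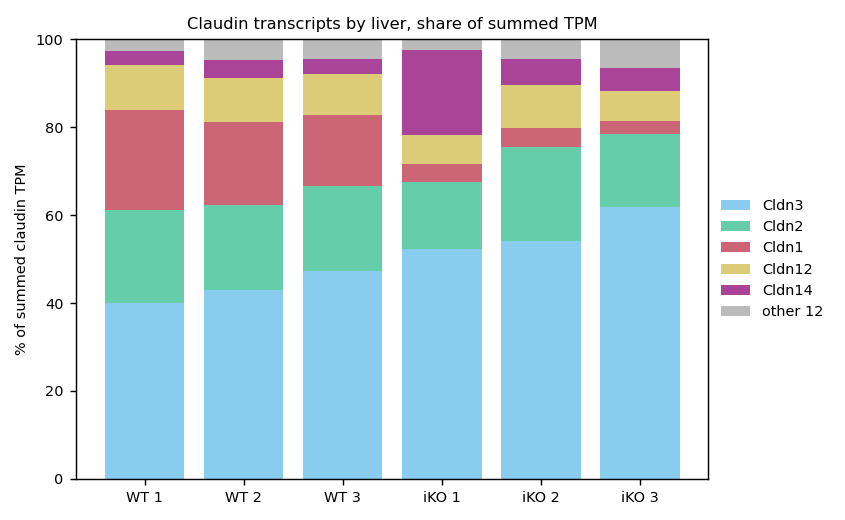
Share of the summed claudin TPM (y axis, percent) taken by the 5 most abundant claudins and by the other 12 together, in each of the 6 livers. The Cldn1 band is at 16.1% to 22.7% in WT and 3.04% to 4.43% in the livers labelled iKO, and the Cldn14 band is wide in iKO 1 alone, at 19.4%.

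1 liver set the value of Cldn14, a claudin known from the inner ear and the kidney. It read 8.07, 9.19 and 8.94 CPM across WT and 44.7, 10.4 and 10.4 CPM across livers labelled iKO. The groups did not overlap, but iKO 1 was more than 4 times the other livers of its label. The log2 fold change of 1.31 (SE 0.62, edgeR adjusted p = 0.203) was 0.26 without iKO 1 (adjusted p = 0.372).

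Cldn5, the claudin of blood vessel endothelium, read 3.45, 3.91 and 4.54 CPM across WT and 2.80, 1.82 and 1.30 CPM across livers labelled iKO. The ranges stood apart, and the difference was not called (log2 fold change -1.02, SE 0.33, edgeR adjusted p = 0.0629). It was called after the length correction (-1.22, adjusted p = 0.0343), without iKO 1 (-1.34, adjusted p = 0.0305) and in both limma fits of FPKM values (adjusted p = 0.0264 and 0.0285). The summed level of the 10 sinusoidal endothelial markers ran from 196 to 320 CPM across WT and from 75.7 to 161 CPM across those labelled iKO, with iKO 3 lowest in both this sum and Cldn5. The part of endothelial RNA in the Cldn5 difference was not tested.

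Cldn4 and Cldn7, claudins of ductal epithelia, varied between livers within each group. Cldn4 read 0.212, 1.64 and 1.01 CPM across WT and 0.266, 1.61 and 3.99 CPM across livers labelled iKO. Cldn7 read 1.22, 2.40 and 3.00 CPM and 1.47, 2.52 and 6.33 CPM. Each gene was low in WT 1 and iKO 1 and highest in iKO 3, the groups overlapped, and neither was called (edgeR adjusted p = 0.473 and 0.434). WT 1 and iKO 1 also stood apart from their group mates over genes as a whole, as given above. Ildr1, which encodes an angulin, was lowest in iKO 1 at 0.400 CPM and highest in iKO 3 at 2.44 CPM.

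Markers of cholangiocytes, the cells that line bile ducts, moved with these genes. Krt19 read 3.56, 9.50 and 9.38 CPM across WT and 3.60, 3.97 and 15.1 CPM across livers labelled iKO, and Epcam 3.40, 9.46 and 7.15 CPM and 3.40, 6.54 and 13.2 CPM. The summed level of the 10 markers was 165 to 257 CPM across WT and 97.4 to 455 CPM across those labelled iKO, with the lowest sum in iKO 1 and the highest in iKO 3. Each of the 10 had counts in some library. The part of duct content in the levels of Cldn4, Cldn7 and Ildr1 was not tested.

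**Figure D4:**
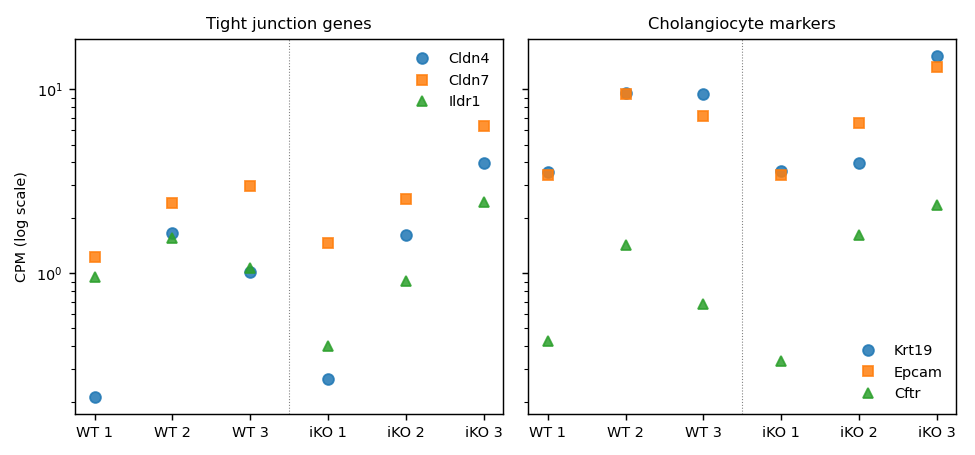
CPM on a log axis of Cldn4, Cldn7 and Ildr1 (left) and of the cholangiocyte markers Krt19, Epcam and Cftr (right) in each liver. All 6 genes are highest in iKO 3, and the dotted line separates WT from the livers labelled iKO.

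The remaining claudins were scarce. Cldn6 and Cldn8 were tested and not called, at 2.29 ± 0.861 and 0.802 ± 0.339 CPM in WT (SD, n = 3 each). Cldn8 read 0.0666 CPM in iKO 1, which is under the 0.2 CPM that 3 counts are worth there. Cldn15 and Cldn23 were not tested, with 30 and 32 counts over all 6 libraries. Cldn20, Cldn22, Cldn10, Cldn18 and Cldn24 had 6, 4, 1, 1 and 1 counts in all.

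Of the occludin family, the membrane proteins with a MARVEL domain, 1 of 3 was called. Ocln (gene ID 18260) read 28.1, 30.1 and 25.4 CPM across WT and 9.99, 16.8 and 13.8 CPM across livers labelled iKO. The groups stood well apart, with a log2 fold change of -1.04 (SE 0.20, edgeR adjusted p = 0.0113). The call ended without WT 2 (adjusted p = 0.0564). Marveld2, which encodes tricellulin, the protein of 3-cell corners, was at 11.1 ± 1.02 and 10.8 ± 2.76 CPM (SD, n = 3 each; edgeR adjusted p = 0.939). Marveld3 was at 0.478 to 1.01 CPM across WT and 1.23 to 1.76 CPM across those labelled iKO, higher without overlap and not called (edgeR adjusted p = 0.151).

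The angulins bring tricellulin to the corners where 3 cells meet. 0 of the 3 were called by edgeR (1 at an unadjusted p under 0.05), while DESeq2 called Ildr2 lower. Lsr, the angulin also known as the lipolysis-stimulated lipoprotein receptor, had the highest level per transcript length in WT of all 48 genes, at 232 ± 71.9 TPM, and read 227 ± 18.2 TPM for livers labelled iKO (SD, n = 3 each). Its log2 fold change in CPM was 0.32 (SE 0.24, edgeR adjusted p = 0.374).

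Ildr2 split the livers by Y-linked reads and not by label. It read 102 and 94.0 CPM in WT 2 and WT 3, the libraries without such reads, and 34.8 CPM in WT 1. The livers labelled iKO read 33.0, 40.4 and 41.4 CPM, a range that holds WT 1. The log2 fold change was -1.01 (SE 0.37, edgeR adjusted p = 0.0983) over all 6 libraries and 0.14 with the Y-linked term (adjusted p = 0.787). Without WT 1 the gene was called lower (-1.35, adjusted p = 0.00425).

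Junctional adhesion molecules are immunoglobulin proteins of tight junctions in epithelium and endothelium. 0 of 3 were called by edgeR (1 lower at an unadjusted p under 0.05), by DESeq2 or by limma-voom. F11r, which encodes JAM-A, was the most abundant, at 72.1 ± 5.44 CPM across WT and 80.8 ± 14.9 CPM for livers labelled iKO (SD, n = 3 each; edgeR adjusted p = 0.552). Jam2 read 6.11, 11.3 and 6.48 CPM and 5.80, 10.4 and 1.61 CPM, lowest in iKO 3 as the summed endothelial markers were. Jam3 was at 0.903 to 1.64 CPM across WT and 0.415 to 0.799 CPM across those labelled iKO (edgeR adjusted p = 0.125).

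The ZO and plaque genes held the most calls, with 4 of 9 lower, and all 9 had negative log2 fold changes. Their median was -0.66. After the length correction it was -0.40, with 8 of the 9 negative and Magi2 at 0.20, and 3 of the 9 were called. With the Y-linked term the median was -0.65 and 0 were called (4 lower at an unadjusted p under 0.05). Tjp3 (gene ID 27375), which encodes ZO-3, read 44, 50.1 and 53.9 CPM across WT and 26.2, 17.5 and 22.3 CPM across livers labelled iKO. The groups did not meet, and the log2 fold change was -1.16 (SE 0.18, edgeR adjusted p = 0.00501).

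Tjp1 (gene ID 21872), which encodes the scaffold ZO-1, read 36.4, 46.8 and 36.6 CPM across WT and 16.5, 30.6 and 22.3 CPM across those labelled iKO. Its log2 fold change was -0.79 (SE 0.23, edgeR adjusted p = 0.0446), and the call held in 1 of the 6 fits that left out a library, the fit without iKO 2 (the largest adjusted p was 0.186, with WT 2 left out). It was also not called after the length correction (adjusted p = 0.0892), by limma-voom (0.0503) or in the limma fits of FPKM values (0.0723 and 0.0765). Tjp1 has the fifth longest effective transcript length of the 41 genes, 6954 bases.

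Cgn (gene ID 70737), cingulin, a link between ZO proteins and the actomyosin cytoskeleton, was the most even gene in WT. It read 48.0, 47.7 and 48.6 CPM across WT and 23.1, 24.8 and 29.4 CPM across livers labelled iKO. It fell by 0.90 on the log2 scale (SE 0.15, edgeR adjusted p = 0.00649), clear of the spread in both groups. Its relative Cgnl1, paracingulin, had a value of 72.3 ± 8.96 CPM across WT and 51.5 ± 9.90 CPM across those labelled iKO (SD, n = 3 each), without overlap and not called (edgeR adjusted p = 0.0998).

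The MAGI scaffolds, which carry several PDZ domains, were not called. Magi1 was at 30.1 ± 3.39 and 21.8 ± 2.76 CPM, Magi3 at 27.5 ± 6.43 and 17.4 ± 5.33 CPM, and Magi2 at 2.06 ± 0.147 and 1.97 ± 0.368 CPM across WT and for livers labelled iKO (SD, n = 3 each). Their edgeR adjusted p-values were 0.0767, 0.110 and 0.919. Amot, angiomotin, a binder of junction proteins and of YAP, was at 9.04 ± 0.453 and 7.10 ± 2.67 CPM (SD, n = 3 each; edgeR adjusted p = 0.42), with iKO 1 lowest at 4.06 CPM.

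The PAR complex joins the scaffolds Pard3 and Pard6 to an atypical protein kinase C. Of its 7 genes edgeR called 0 (2 lower and 1 higher at an unadjusted p under 0.05), limma-voom 0, and DESeq2 1 (Pard6a, higher). The kinase gene Prkci read 18.3, 15.1 and 14.8 CPM across WT and 9.39, 12.1 and 11.5 CPM across livers labelled iKO (log2 fold change -0.55, SE 0.17, edgeR adjusted p = 0.0582). The other kinase gene, Prkcz, read 23.5, 21.4 and 22.7 CPM and 29.6, 21.7 and 21.0 CPM (edgeR adjusted p = 0.736). The ranges of Prkci stood apart and those of Prkcz overlapped, and whether the 2 kinase genes differ in response was not tested.

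The Pard6 adaptors pointed in different directions, none of them called. Pard6a read 1.65, 2.75 and 2.17 CPM across WT and 4.20, 4.24 and 3.63 CPM across livers labelled iKO (log2 fold change 0.87, SE 0.28, edgeR adjusted p = 0.0646; 0.0469 by DESeq2). Pard6g read 0.797, 1.2 and 1.35 CPM and 0.266, 0.429 and 0.571 CPM (log2 fold change -1.37, SE 0.44, edgeR adjusted p = 0.0614). Pard6b was at 7.69 ± 0.709 and 6.03 ± 0.459 CPM (SD, n = 3 each; edgeR adjusted p = 0.239). In all 3 genes the groups did not overlap, and the levels of Pard6a and Pard6g rest on few reads. Pard3, the most abundant gene of the complex in CPM, was at 63.7 ± 5.22 and 53.1 ± 11.6 CPM (SD, n = 3 each; edgeR adjusted p = 0.366), and Pard3b at 4.45 ± 1.62 and 5.47 ± 1.03 CPM (SD, n = 3 each; edgeR adjusted p = 0.513).

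Both listed genes of the Crumbs complex encode proteins with many PDZ domains, and neither was called by edgeR (1 lower at an unadjusted p under 0.05), DESeq2 or limma-voom. Mpdz was at 17.3 ± 3.68 and 10.4 ± 3.19 CPM (SD, n = 3 each; edgeR adjusted p = 0.0767). Patj was at 12.6 ± 1.55 and 11.2 ± 1.98 CPM (SD, n = 3 each; edgeR adjusted p = 0.569).

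Of the 4 Scribble complex genes, which mark the basolateral side, Llgl2 fell and 3 were not called. Llgl2 (gene ID 217325) read 38.2, 38.4 and 42.9 CPM across WT and 23.8, 19.9 and 21.7 CPM across livers labelled iKO. The spread in each group was small beside the difference, a log2 fold change of -0.87 (SE 0.15, edgeR adjusted p = 0.00695). Its relative Llgl1 was at 10.1 ± 0.198 and 10.7 ± 1.40 CPM (SD, n = 3 each; edgeR adjusted p = 0.772). Scrib read 24.3, 22.7 and 22.7 CPM and 33.2, 24.7 and 27.6 CPM, higher without overlap and not called (edgeR adjusted p = 0.218). Dlg1 was at 39.2 ± 3.52 and 36.9 ± 5.71 CPM (SD, n = 3 each; edgeR adjusted p = 0.744).

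4 of the 9 called genes, Cldn1, Tjp3, Cgn and Llgl2, kept their call in each of the 6 fits that left out 1 library. The count of called genes was 4 without WT 2, and in each of the 18 other fits all 9 kept their direction. In the fit with the Y-linked term, Cgn, Tjp3 and Llgl2 had log2 fold changes of -0.90, -1.0 and -0.81 beside -0.90, -1.16 and -0.87 without it (edgeR adjusted p = 0.0927, 0.0974 and 0.115 with the term).

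**Figure D5:**
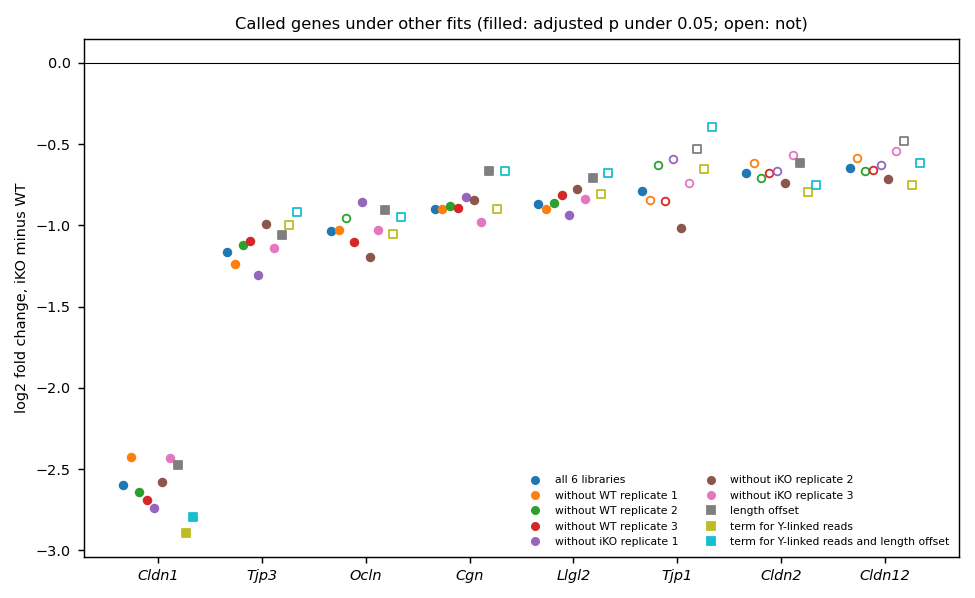
Log2 fold change (y axis, iKO minus WT) of 8 called genes over all 6 libraries, without each library, with the length offset, with the Y-linked term, and with both. Filled symbols passed an edgeR adjusted p of 0.05. Every symbol lies below 0, and Cldn1 is the 1 gene filled throughout, between -2.42 and -2.89.

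Reads of some of these genes may be shared with other genes, since their expected counts were not whole numbers. This held in all 6 libraries for F11r, Dlg1, Pard3b and Magi2, in 4 for Pard6a, in 3 for Tjp3 and Ildr2, in 2 for Ocln and in 1 for Amot. How far shared reads touch these levels was not measured. The departure was slight for Ocln (529.02 and 677.01 expected counts in WT 1 and WT 2) and Amot (175.01 in iKO 3). The counts of Cldn1, Cldn2, Cldn12, Cgn, Llgl2 and Tjp1 were whole in all 6.

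A list of 50 other junction and polarity genes outside the rule, of which 49 are in the table and 48 were tested, had 5 called lower and 1 called higher. That is 12.5% called, against the 15.4% among all tested genes given above, with a median log2 fold change of -0.11. Among the genes of adherens junctions, the cadherin-based contacts below the tight junction, Cdh1 and Vcl fell and Nectin2 rose, out of 13. Cdh1, E-cadherin, read 59.8, 54.3 and 56.2 CPM across WT and 23.9, 28.9 and 41.1 CPM across livers labelled iKO (log2 fold change -0.86, SE 0.20, edgeR adjusted p = 0.0241). Nectin2, an immunoglobulin adhesion gene, read 52.6, 42.5 and 44.1 CPM and 96.5, 70.3 and 85.6 CPM (log2 fold change 0.86, SE 0.18, edgeR adjusted p = 0.015). Vcl, vinculin, which links junctions to actin, had a log2 fold change of -0.64 (edgeR adjusted p = 0.0354).

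Of 7 desmosome genes, which anchor keratin filaments, Dsp fell and 6 were not called. Dsp, desmoplakin, read 73.5, 76.5 and 83.0 CPM across WT and 27.4, 39.3 and 33.9 CPM across livers labelled iKO (log2 fold change -1.21, SE 0.17, edgeR adjusted p = 0.00348), and it kept its call whichever library was left out. Of 15 polarity and apical trafficking genes Myo5b fell, a myosin motor that carries apical cargo to the canaliculus, from 33.2 ± 4.29 to 17.6 ± 2.35 CPM (SD, n = 3 each; edgeR adjusted p = 0.0096). Of 10 other junction and immunoglobulin adhesion genes Amotl1, a relative of angiomotin, fell from 9.43 ± 3.07 to 4.01 ± 0.928 CPM (SD, n = 3 each; edgeR adjusted p = 0.0237). Of the 3 gap junction genes 0 were called by edgeR (1 higher at an unadjusted p under 0.05), DESeq2 or limma-voom. The calls of Cdh1, Vcl, Nectin2, Myo5b and Amotl1 each ended without WT 2 (edgeR adjusted p between 0.0545 and 0.127). Of the 6 fits that left out a library, Vcl kept its call in 1, Cdh1 in 2, Amotl1 in 2, Nectin2 in 4 and Myo5b in 5. With the length correction 2 of the 48 were lower (Dsp and Myo5b) and 2 higher, and Cdh1, Vcl and Amotl1 lost their calls (adjusted p = 0.0535, 0.108 and 0.0863). With the Y-linked term 0 of the 48 were called (5 lower and 1 higher at an unadjusted p under 0.05).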

How the data were processed

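RNA-seq of 6 livers was analysed from 1 deposited table of 17441 genes. The submitters' processing notes name mm9, RSEM 1.2.12, HISAT2 2.0.4 and Bowtie2 2.2.5. Neither those notes nor the labels used here give strand use. The authors deposited expected counts, which need not be whole, FPKM values and TPM values for each liver. TPM served for levels between genes and FPKM for alternatives.

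Expected counts were rounded and tested with edgeR 4.0.16 in R 4.3.3 over all 13160 genes that passed filterByExpr (TMM factors, robust quasi-likelihood test). Genes were called at a Benjamini-Hochberg adjusted p under 0.05. CPM is TMM-scaled, with factors from 0.780 (iKO 1) to 1.18 (WT 2). SE was taken as the fold change (log2) divided by the root of the F statistic. Counting limits of 3 counts cover counting error only.

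Every gene of the rule is accounted for: those called or averaging 20 CPM or more in either group are named, and other genes named were chosen after their values were seen. From the second list, called genes are named. A called gene of the set and a cell marker stay in the counts and sums and are not reported here. The genes, lists and alternatives were chosen with earlier results of these data known. Alternatives, which the closing section describes, used limma 3.58.1 and DESeq2 1.42.0. The Y-linked term marks libraries where Ddx3y plus Kdm5d exceeded 10 counts. The length offset is a lowess trend (span 0.3) of log2 CPM over effective length, taken where FPKM reached 0.2.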

Additional observations from a re-analysis of the deposited data

How the results depend on the processing

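Over all 13160 tested genes edgeR called 2024, and 184, 143 and 165 with the term for Y-linked reads, in the libraries with such reads alone, and with that term and the length offset together. In the same 3 fits 1, 1 and 1 of the tight junction and polarity genes (Cldn1) and 0, 0 and 0 of the other junction and polarity genes were called. Leaving out 1 library gave 491 to 1840 calls among all genes, 4 to 9 among the tight junction and polarity genes and 1 to 6 among the other list. The lowest counts came without WT 2; without WT 3 they were 908, 6 and 2, and without iKO 3 they were 946, 6 and 4. RLE and upper-quartile factors, no filter, DESeq2, limma-voom, both limma fits of log2(FPKM + 1) and log2(FPKM + 0.1), and the length offset alone gave 8 to 11 tight junction and polarity calls. Prkci was called under upper-quartile factors (adjusted p = 0.0477). The FPKM fits move the median of all genes to -0.12 and -0.20, beside -0.32 and -0.56 for the tight junction and polarity genes. With the Y-linked term and the length offset together that set's median was -0.12. Replicate numbers are shared between the groups. The deviations of same-numbered livers from their group means had correlations of 0.207, 0.218 and 0.0458. Those of differently numbered livers ran from -0.432 to 0.334. With so few livers these values cannot decide whether the numbers pair them. A replicate block gave 1710, 8 and 5 calls and ended the call of Cldn2 (adjusted p = 0.0526). Of the 32 genes not called, 14 changed sign in at least 1 of the 18 fits. Counting error limits genes near 1 CPM.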
